A study of Rattus norvegicus with 12 samples.

Results

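The genes described here are 10 endothelial and angiogenesis genes of the rat mammary gland: the endothelial surface genes Pecam1, Cdh5, Kdr, Flt1, Tek, Tie1 and Eng, and the secreted factors Vegfa, Angpt1 and Angpt2. They were taken by name, as every gene probe of the array that carries one of these symbols. No value entered this rule, but the genes were chosen with earlier results of these data known. This gave 13 of 30367 probes for 10 of 26456 genes. Vegfa had 4 probes, of which 3 are described, and each other gene had 1. All 13 probes were well above background on all 12 arrays.

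Total RNA of the lumbar mammary gland (4th and 5th gland) of female Wistar rats was measured on 12 one-colour arrays, 1 per rat, in 4 groups of 3 rats. The dams of the normal protein (NP) group were fed a diet with 17.0% protein in pregnancy, and those of the low protein (LP) group one with 8.8% protein. Litters were reduced to 6 females at birth, which suckled dams on standard chow until day 21 and were then weaned to the same chow. Glands were taken on day 21 of life, at weaning, or on day 28, and visible lymph nodes were removed. The rats of a group were NP 4a, 5a and 6a and LP 4a, 6a and 7c at day 21, and NP 4f, 5f and 6f and LP 4f, 6f and 7f at day 28. The labels do not say which litter a rat came from, so the p-values measure the spread between these rats. The gland was taken whole, so that its fat pad, ducts, connective tissue and blood vessels were measured together, and in such bulk samples fewer endothelial cells and less RNA per endothelial cell cannot be told apart.

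Blood vessels are lined by endothelial cells. Vascular endothelial growth factor A (Vegfa) binds the receptors Kdr and Flt1 on these cells, of which Kdr carries most of the growth signal and Flt1 acts largely as a decoy. The angiopoietins bind the receptor Tek (also called Tie2): Angpt1 activates it and steadies mature vessels, while Angpt2 is stored and released by endothelial cells themselves and mostly opposes Angpt1. Tie1 is the partner of Tek at the cell surface and has no well known ligand of its own. Endoglin (Eng) is a co-receptor for TGF-β family ligands, and Pecam1 and Cdh5 (VE-cadherin) join endothelial cells to each other. Capillaries run through the fat pad around the growing ducts.

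The probes of the genes on which the results turn are given first, each of 60 bases and written 5′ to 3′, with rn4 positions as the array annotation gives them. Tie1 was measured on chromosome 5 (138950263 to 138950322, minus strand) and Tek on chromosome 5 (115178576 to 115178635). The Eng probe had no rn4 position in the annotation. By their sequences all 3 probes lie in coding parts, which was not checked against an rn4 annotation.
Tie1 (A_44_P520235): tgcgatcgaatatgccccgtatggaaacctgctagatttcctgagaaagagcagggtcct
Eng (A_44_P474559): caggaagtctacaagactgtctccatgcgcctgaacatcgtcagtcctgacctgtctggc
Tek (A_44_P534601): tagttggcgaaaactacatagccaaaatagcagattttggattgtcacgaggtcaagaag

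Both Vegfa probes below lie on chromosome 9 in different coding parts of the gene, and are shown because they did not give the same sign at day 28. The first, at 10528551 to 10528610, lies in the part shared by the isoforms. The second, at 10531972 to 10532031, lies in the exon for the heparin-binding region, which the shortest isoform lacks. The brightest Vegfa probe (A_64_P099886, 10535933 to 10535992) lies beyond the coding part, and its values stand for the gene unless another probe is named.
A_64_P099891: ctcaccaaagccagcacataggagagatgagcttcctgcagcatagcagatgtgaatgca
A_64_P155983: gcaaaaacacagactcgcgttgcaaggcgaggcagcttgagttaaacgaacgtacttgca

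Of the other genes, Pecam1 was measured on chromosome 10 (96056219 to 96056278), Cdh5 on chromosome 19 (779665 to 779724), Flt1 on chromosome 12 (7957094 to 7957153) and Angpt2 on chromosome 16 (75939239 to 75939298). The Kdr probe had no rn4 position, and that of Angpt1 had an entry of 6 bases on chromosome 7 (78195504 to 78195509). Values are log2 signals relative to the 75th percentile of the gene spots of the same array, so that a value of 0 is the level of that percentile. Signals of different probes were not compared with each other, since probes differ in brightness. Differences were tested with limma over all 23209 probes that were well above background on at least 3 arrays, and p-values were adjusted over these probes by the method of Benjamini and Hochberg.

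The arrays were alike in the share of gene spots well above background, 74.8% to 79.6%, and no spot of the 10 genes was saturated. NP 5f at day 28 had the most spots marked as outliers by the scanner software (766, against 259 to 457 on the others). Its 75th percentile was also the lowest (1451.4, against 1769.7 to 2369.6). The array of LP 6a at day 21 stood apart. It correlated less with the rest (median r 0.967) than any other array did (0.976 to 0.991), and its mean over 10 blood cell markers was -0.02 against 1.61 to 2.74 on the others. The array of NP 4f at day 28 had the next lowest correlation (0.976) and the lowest mean over 10 epithelial markers (-0.59). All day 21 arrays were on 1 slide and all day 28 arrays on another, and a difference between days cannot be told apart from one between slides. The array also held 22 other endothelial genes of those listed, and all 22 were well above background on all 12 arrays. The epithelial, adipocyte, fibroblast and pericyte markers were well above background on all 12 arrays as well, as is usual for a whole gland.

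Between day 21 and day 28, Tie1 and Eng fell in the mean of both diets. Tie1 fell by 0.63 on the log2 scale (SE 0.12, 1.55-fold lower, adjusted p = 0.035 by limma) and Eng fell by 0.55 (SE 0.11, 1.46-fold lower, adjusted p = 0.0423 by limma). Both adjusted p lay close to the threshold. Tie1 passed it in 9 of 12 alternatives that kept all arrays and in 3 of 12 that left 1 out. Eng passed it in 6 of 12 and in 0 of 12. Among the 12 that kept all arrays, 1, a deposited table of the same signals, gives the main values again by construction. Neither passed it when the rats' numbers were fitted as blocks, though the numbers were not shown to pair the rats. Tie1 and Eng were 2 of the 10 genes, where 1.81% of all probes passed the same threshold and 0.767% passed it and were lower. None of the other 8 genes passed it. At an unadjusted p under 0.05, 6 of the 10 genes differed between the days, against 19.2% of all probes, and all 6 were lower at day 28, against 9.35%. The median difference of the 10 genes was -0.26, and that of all probes was 0.01. With each array left out in turn that median lay between -0.28 and -0.22, and 3 to 6 of the genes had an unadjusted p under 0.05. The fewest, 3, were found without NP 6a at day 21.

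**Figure D1:**
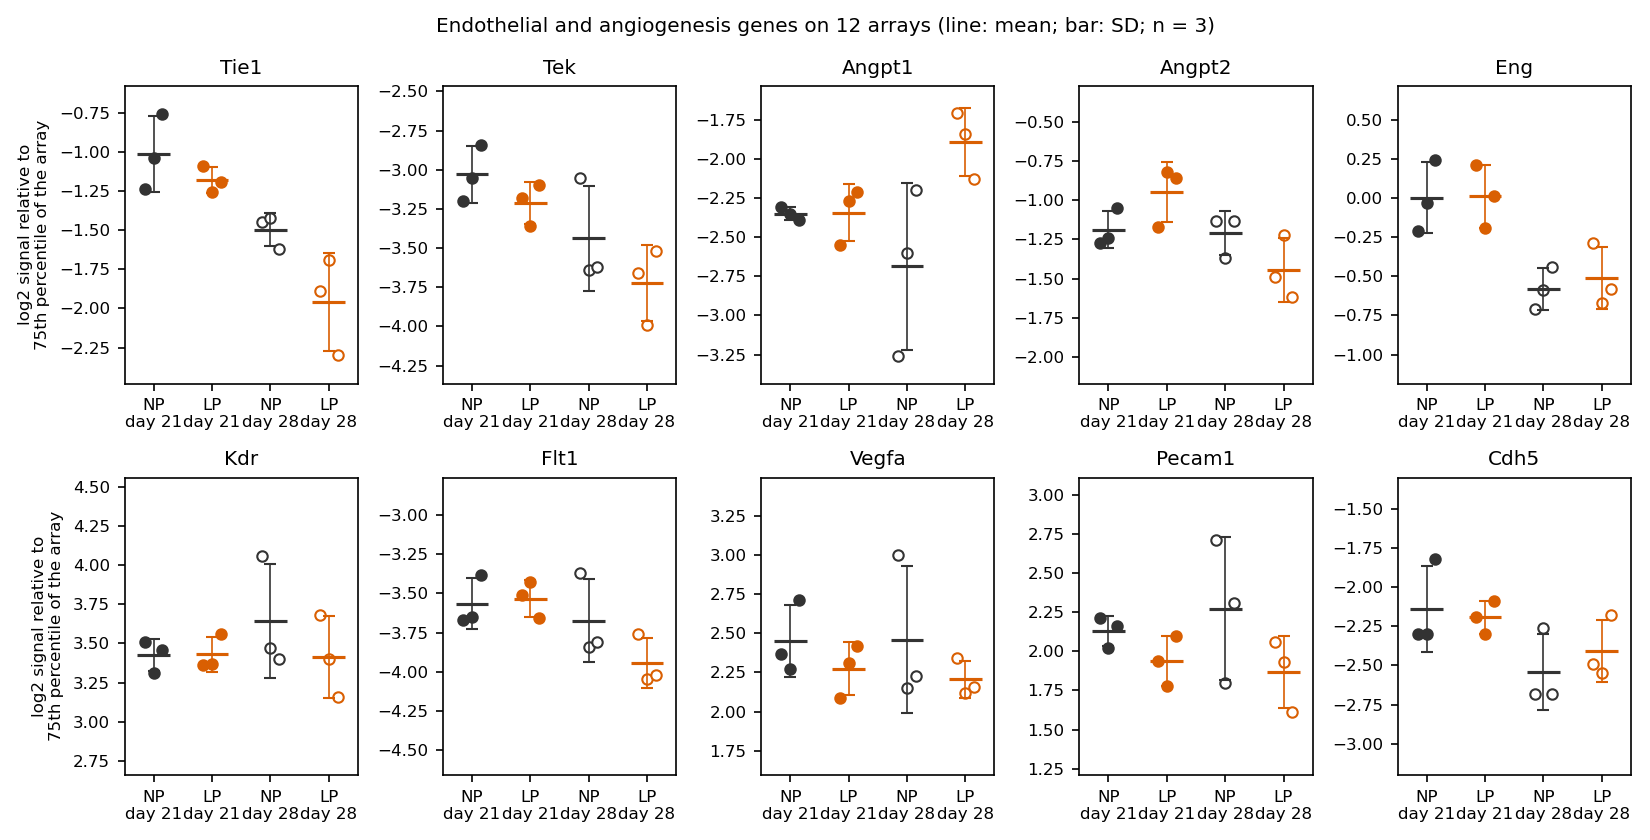
Log2 signal relative to the 75th percentile of the array (vertical axis, the same span in every panel) of the 10 genes in the 4 groups, with 1 point per rat, the mean as a line and the SD as a bar (n = 3). The 6 day 28 values of Tie1 and of Eng lie below their 6 day 21 values, and the 3 LP values of Angpt1 at day 28 lie above the 3 NP values.

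Tie1 was -1.24, -1.04 and -0.76 in the NP rats at day 21 and -1.09, -1.26 and -1.19 in the LP rats. At day 28 it was -1.45, -1.42 and -1.62 in the NP rats and -1.89, -1.69 and -2.30 in the LP rats. Every day 28 value lay below every day 21 value, as for 2% of all probes (3.73% in either direction), and the 3 LP rats at day 28 were the lowest of all. The 95% interval of the difference between days was -0.90 to -0.37. Within NP the difference was -0.48 (SE 0.17, adjusted p = 0.278 by limma), and within LP it was -0.78 (SE 0.17, adjusted p = 0.233 by limma). The drop in LP was not shown to be larger, since the difference between the diets' changes was -0.30 (95% interval -0.83 to 0.23, adjusted p = 1 by limma). With each array left out in turn, the Tie1 difference lay between -0.70 and -0.55 and its adjusted p between 0.0329 and 0.0819, and the threshold was passed only without NP 4a at day 21 (-0.69), NP 4f at day 28 (-0.64) or LP 6f at day 28 (-0.70). Without LP 6a at day 21, the array that stood apart, it was -0.65 with an adjusted p of 0.0687.

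Eng was -0.21, -0.03 and 0.24 in the NP rats at day 21 and 0.21, -0.19 and 0.01 in the LP rats. On day 28 the values were -0.71, -0.59 and -0.44 in the NP rats and -0.29, -0.67 and -0.58 in the LP rats. The days did not overlap, and the LP and NP values overlapped on both days. The difference was alike in size within NP (-0.58, SE 0.16, adjusted p = 0.184 by limma) and within LP (-0.52, SE 0.16, adjusted p = 0.35 by limma), and the 95% interval of the difference between these was -0.44 to 0.55. On the 11 arrays where both were kept, the 2 spots of the Eng probe differed by up to 2.24-fold. On LP 4a at day 21, which is not in that range, the dimmer spot had been marked as an outlier by the scanner software and was left out. With that spot kept, the Eng difference was -0.41 and its adjusted p 0.141, so that the call was lost. With each array left out in turn the Eng difference lay between -0.61 and -0.49, and its adjusted p between 0.0526 and 0.0967, above the threshold in all 12 cases. Without the filter on dim probes, over 30367 probes, the adjusted p was 0.0545 for Tie1 and 0.0682 for Eng.

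The promoters of Tie1 and Eng are printed because these were the genes that passed the test. RefSeq windows on GRCr8, from 250 bases before the transcript start to 50 after it, were found for 5 of the 10 genes (Eng, Flt1, Kdr, Tie1 and Vegfa). The capitals mark AGGAAG on either strand, a core that factors of the ETS family bind, of which several are well known in endothelial cells.
Tie1 promoter, chr5:137304932-137305231 (minus strand): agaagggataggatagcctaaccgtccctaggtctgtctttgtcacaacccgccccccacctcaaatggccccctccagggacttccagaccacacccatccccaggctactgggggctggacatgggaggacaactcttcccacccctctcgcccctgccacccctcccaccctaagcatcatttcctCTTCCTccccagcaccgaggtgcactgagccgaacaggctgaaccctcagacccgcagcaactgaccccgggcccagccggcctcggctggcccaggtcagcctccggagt
Eng promoter, chr3:36332029-36332328 (plus strand): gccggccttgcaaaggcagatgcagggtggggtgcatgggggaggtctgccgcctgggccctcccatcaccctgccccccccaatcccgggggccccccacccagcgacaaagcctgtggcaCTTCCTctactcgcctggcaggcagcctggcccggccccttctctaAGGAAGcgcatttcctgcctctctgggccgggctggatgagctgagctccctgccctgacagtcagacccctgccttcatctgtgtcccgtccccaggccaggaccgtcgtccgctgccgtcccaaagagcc

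Counted from the start, the core began at -61 in Tie1, and at -128 and -82 in Eng. The 5 genes had 6 windows, since Vegfa had more than 1. The core was present in 3 of 6 (those of Eng, Flt1 and Tie1), against 34.5% of 33469 windows. The hypoxia factor core ACGTG, on either strand, was in 0 of 6 windows, against 19.3% of all. The GC box GGGCGG, on either strand, was in 4 of 6 windows, against 33.1%. The TATA box, TATAAA on either strand, was in 1 of 6, against 14.2%. A match describes letters in this window only.

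Tek, the partner of Tie1, was -3.20, -3.05 and -2.84 in NP and -3.18, -3.36 and -3.10 in LP at day 21. The day 28 values were -3.05, -3.64 and -3.62 in NP and -3.66, -3.99 and -3.52 in LP. The LP rats of the 2 days did not overlap, while the NP rat 4f at day 28 lay among the day 21 values. The difference between days was -0.46 (SE 0.13, adjusted p = 0.109 by limma), and without NP 4f at day 28 it was -0.56 with an adjusted p of 0.0447. In the other alternatives computed, Tek did not pass the threshold.

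Of the Tek ligands, Angpt2 was -1.27, -1.24 and -1.05 in NP and -1.17, -0.82 and -0.86 in LP at day 21. The day 28 values were -1.13, -1.37 and -1.13 in NP and -1.49, -1.22 and -1.62 in LP. The LP rats were lower at day 28 than at day 21 without overlap, and the NP rats of the 2 days overlapped. Angpt2 differed between days by -0.50 (SE 0.14, adjusted p = 0.332 by limma) within LP and by -0.02 (SE 0.14, adjusted p = 0.974 by limma) within NP. The test of the difference between these changes gave -0.48 (SE 0.20, adjusted p = 1 by limma), and with each array left out in turn it lay between -0.59 and -0.39.

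Angpt1 was -2.31, -2.35 and -2.39 in NP and -2.55, -2.27 and -2.21 in LP at day 21, so that the 2 diets overlapped. At day 28 it was -3.26, -2.60 and -2.20 in NP and -1.71, -1.84 and -2.13 in LP. Every LP rat at day 28 lay above every NP rat, the nearest pair being NP 6f and LP 7f, and the NP rats differed more among themselves (SD 0.54) than the LP rats did (SD 0.22).

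The question of the study was how a low protein diet of the dam affects the gland of the offspring. At day 28, Angpt1 was 0.80 higher in LP than in NP on the log2 scale (SE 0.23, 1.74-fold, 95% interval 0.28 to 1.31), but with an adjusted p of 0.581 by limma it did not pass the test. The difference of Tie1 was -0.46 (SE 0.17, 95% interval -0.84 to -0.09, adjusted p = 0.581 by limma). These 2 of 10 genes had an unadjusted p under 0.05, against 8.07% of all probes, and they were also the 2 whose diets did not overlap, against 16.8% of all probes. None of the 10 genes passed the adjusted threshold, and nor did any of the 23209 probes (0%). Of the 10 genes 3 were higher in LP, where 42.7% of all probes were. The median difference of the 10 genes was -0.25, and that of all probes was -0.05. Without NP 4f at day 28 both medians were -0.05, 7 of the 10 genes were lower, and 1 gene in place of 2 had an unadjusted p under 0.05. The lowest adjusted p of any probe was 0.581.

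The Angpt1 difference at day 28 kept its sign in every alternative computed. With each array left out in turn it lay between 0.51 and 1.04, and it was lowest without NP 4f. The difference of Tie1 lay between -0.60 and -0.29 in the same way. It was -0.29 without LP 7f, -0.44 without NP 4f and -0.43 without NP 5f, and without any of these its unadjusted p was above 0.05.

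At day 21 the diets were closer together. None of the 10 genes passed the adjusted threshold, as was the case for all probes (0%), and none had an unadjusted p under 0.05, against 4.36% of probes. In 0 of 10 genes did the groups not overlap, against 11.5% of probes. The differences ran from -0.19 (Pecam1) to 0.24 (Angpt2, adjusted p = 0.861 by limma), with 5 genes higher and 5 lower and a median of -0.03, and that of all probes was 0.01. For Angpt1 the difference at day 21 was 0.01 (95% interval -0.51 to 0.52). Its change from day 21 to day 28 was 0.79 (SE 0.33, adjusted p = 1 by limma), and Angpt1 and Angpt2 were the 2 of 10 genes with an unadjusted p under 0.05 in this test, against 2.26% of all probes. With each array left out in turn that p was under 0.05 for Angpt1 in 5 of 12 cases and for Angpt2 in 4 of 12, and for both of them only without NP 5f at day 28. Without NP 4f at day 28 neither p was under 0.05, and the change was 0.50 for Angpt1 and -0.44 for Angpt2. None of the 10 genes passed the adjusted threshold in it.

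**Figure D2:**
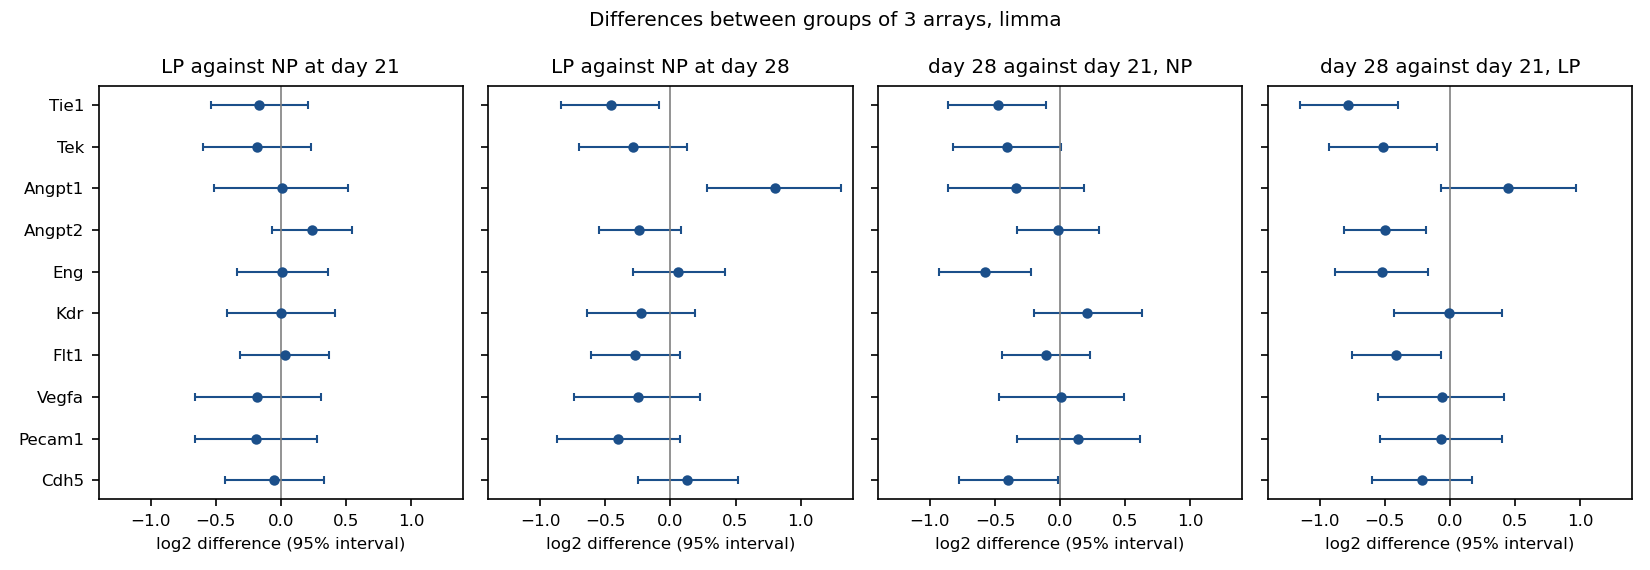
Log2 difference of each of the 10 genes with its 95% interval from limma (horizontal axis), for LP against NP at day 21 and at day 28, and for day 28 against day 21 within NP and within LP. At day 28 the interval of Angpt1 (0.28 to 1.31) lies above 0 and that of Tie1 (-0.84 to -0.09) below it, and the interval of Tie1 lies below 0 in both comparisons of the days.

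For neither receptor of Vegfa did the difference between the diets pass the adjusted threshold. Kdr was 3.51, 3.31 and 3.46 in NP and 3.36, 3.37 and 3.56 in LP at day 21. At day 28 it was 4.06, 3.47 and 3.40 in NP and 3.68, 3.40 and 3.16 in LP, the rat NP 4f being the highest. The difference between diets at day 28 was -0.23 (SE 0.19, adjusted p = 0.637 by limma), and without NP 4f it was -0.02. Between days Kdr differed by 0.10 (SE 0.13, adjusted p = 0.702 by limma), and by 0.00 without NP 4f.

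Flt1 was -3.67, -3.65 and -3.38 in NP and -3.51, -3.43 and -3.66 in LP at day 21. At day 28 it was -3.37, -3.84 and -3.81 in NP and -3.76, -4.05 and -4.02 in LP. In LP the days did not overlap, with a difference of -0.41 (SE 0.15, adjusted p = 0.422 by limma), and in NP they did, with -0.11 (SE 0.15, adjusted p = 0.812 by limma). The test of the difference between these changes gave -0.30 (SE 0.22, adjusted p = 1 by limma).

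Vegfa was 2.37, 2.27 and 2.71 in NP and 2.09, 2.31 and 2.42 in LP at day 21. The values of day 28 were 3.00, 2.15 and 2.23 in NP and 2.34, 2.12 and 2.16 in LP, and NP 4f was again the highest rat. The difference between the diets was -0.18 (SE 0.22, adjusted p = 0.925 by limma) at day 21 and -0.25 (SE 0.22, adjusted p = 0.649 by limma) at day 28. The probe in the part shared by the isoforms gave -0.17 (SE 0.23) at day 21 and -0.28 (SE 0.23) at day 28. The probe in the heparin-binding exon gave -0.02 at day 21 and 0.06 at day 28, so that at day 28 it had the other sign, within its error (SE 0.15). Between days, the brightest probe differed by -0.03 (SE 0.15) and both coding probes by -0.29 and -0.19, with adjusted p of 0.356 and 0.353 by limma.

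**Figure D3:**
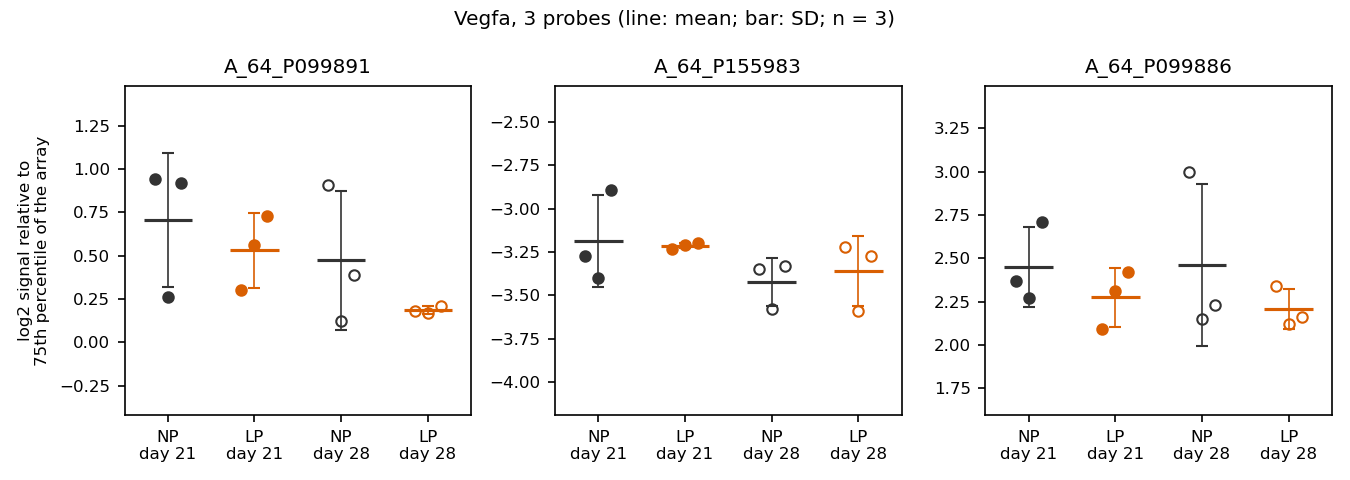
Log2 signal relative to the 75th percentile of the array (vertical axis, the same span in every panel) of 3 Vegfa probes in the 4 groups, with 1 point per rat, the mean as a line and the SD as a bar (n = 3). Groups that share a diet or a day overlap on all 3 probes except for A_64_P099891 in LP, where the 3 day 28 values (0.17 to 0.21) lie below the 3 day 21 values (0.30 to 0.73).

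The genes of the junctions gave no call. Pecam1 was 2.21, 2.02 and 2.16 in NP and 1.94, 1.78 and 2.10 in LP at day 21. The values of day 28 were 2.71, 1.80 and 2.31 in NP and 2.06, 1.93 and 1.61 in LP. The diets overlapped on both days, and the difference at day 28 was -0.40 (SE 0.21, adjusted p = 0.581 by limma). It was -0.18 without NP 4f and -0.64 without NP 5f, and in the second case its unadjusted p was under 0.05.

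Cdh5 was -2.30, -2.30 and -1.82 in NP and -2.19, -2.30 and -2.09 in LP at day 21. On day 28 the values were -2.68, -2.26 and -2.68 in NP and -2.49, -2.55 and -2.18 in LP. The days and diets overlapped, with a difference between days of -0.31 (SE 0.12, adjusted p = 0.211 by limma).

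Within each diet no gene of the 10 passed the adjusted threshold between days, where 0.25% of probes did in NP and 0% in LP. In NP, 3 of the 10 genes had an unadjusted p under 0.05 (Eng, Tie1 and Cdh5), against 12.8% of probes. In LP there were 5 (Tie1, Angpt2, Eng, Tek and Flt1), against 10.1% of probes. The days did not overlap for 2 genes in NP, both lower at day 28, against 18.7% of probes (7.02% lower). They did not overlap for 6 genes in LP, against 18.7% of probes, of which Angpt1 was higher (7.2% of probes) and 5 were lower (11.5% of probes). The Angpt1 difference in LP was 0.45 (SE 0.23, adjusted p = 0.562 by limma).

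Across the 12 arrays, after the group means were taken off, the 10 pairs among Kdr, Pecam1, Vegfa, Flt1 and Tek had the 10 highest values of Pearson's r, from 0.47 to 0.82. It was 0.82 between Kdr and Pecam1, 0.82 between Kdr and Vegfa, 0.82 between Flt1 and Vegfa and 0.78 between Tek and Vegfa. Much of this lay in NP 4f at day 28, and without it the same pairs had r of 0.63, 0.52, 0.57 and 0.47 over 11 arrays. Other pairs of these genes then had r near 0, with -0.09 for Kdr and Tek, -0.06 for Pecam1 and Tek and 0.13 for Flt1 and Pecam1. Without that array some pairs beyond this set ranked above all of its pairs, such as Cdh5 and Tek (0.71) and Eng and Tek (0.67). Over all 12 arrays Angpt1 ran the other way, with r of -0.69 to Tek and -0.55 to Vegfa, and without NP 4f these were -0.27 and 0.43. Its r to Pecam1 went from -0.24 to 0.79 without NP 4f, and its r to Kdr from -0.41 to 0.60. To Cdh5 its r went from -0.11 to -0.60. Tie1 followed none of the genes closely, its highest r being 0.44 with Angpt2. These are descriptions over arrays that share 2 slides, and no p was attached to them.

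**Figure D4:**
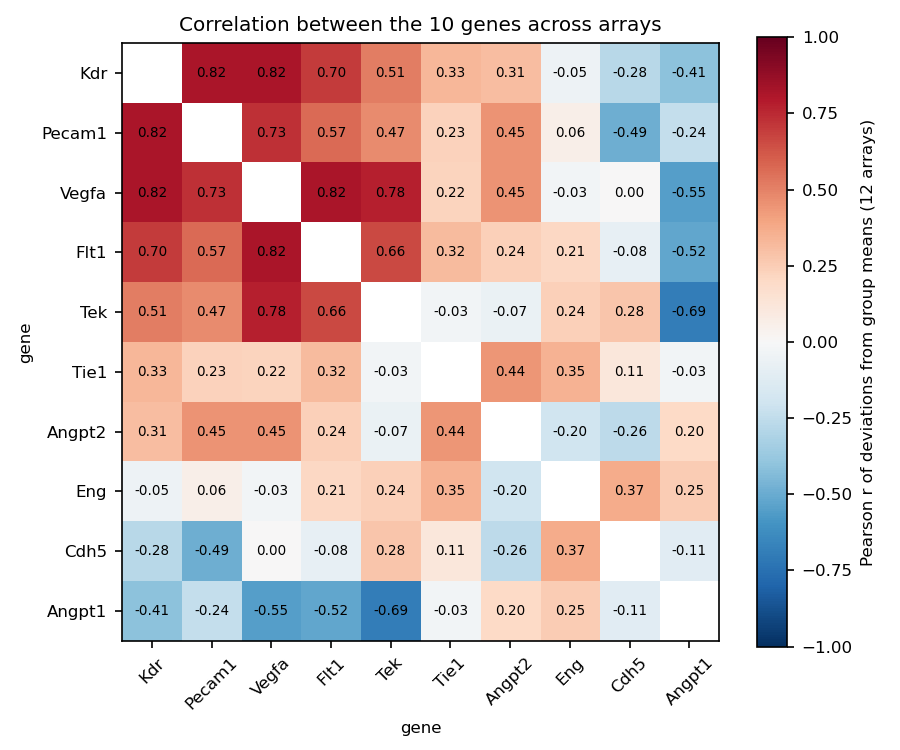
Pearson's r between each pair of the 10 genes (both axes) over the deviations of 12 arrays from their group means, on a colour scale from -1 to 1. The 10 pairs among Kdr, Pecam1, Vegfa, Flt1 and Tek have the highest values, from 0.47 to 0.82, and Angpt1 has its lowest value, -0.69, with Tek. Without NP 4f at day 28, which is not drawn, r was -0.09 for Kdr and Tek and 0.79 for Angpt1 and Pecam1.

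The mean of the 7 surface genes (Pecam1, Cdh5, Kdr, Flt1, Tek, Tie1 and Eng), with the group means taken off, was highest in NP 4f at day 28 (0.19) and NP 6a at day 21 (0.18) and lowest in NP 4a and NP 5f (both -0.10). It went with the mean of the 22 other endothelial genes (r = 0.85) and of the 7 adipocyte markers (r = 0.63). It went against the means of the 7 fibroblast markers (r = -0.80), the 18 other genes of the VEGF and angiopoietin pathway (r = -0.69), the 10 epithelial markers (r = -0.66) and the 12 angiogenesis inhibitors (r = -0.58). For the other 6 lists r lay between -0.26 and 0.22. Among 20157 other genes, those whose deviations were most like it over the 12 arrays were Mon1a (r = 0.976), Orc5l (r = 0.963), Stx2 (r = 0.951), Phyh (r = 0.943) and Pigl (r = 0.942). These differed between days by -0.07, -0.02, -0.25, 0.29 and 0.05. No r of the surface mean is given without NP 4f at day 28, where that mean was highest. On that array the fibroblast, other VEGF and angiopoietin, epithelial and inhibitor lists had their lowest means of all 12 arrays (4.02, -1.33, -0.59 and -1.07).

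The other endothelial genes were measured alongside, and this list too was chosen with earlier results of these data known. Of the 22, 21 were lower in LP than in NP at day 28, with a median of -0.32, where the median of all probes was -0.05 and 42.7% of probes were higher in LP. None passed the adjusted threshold, and 5 had an unadjusted p under 0.05, all lower in LP, against 8.07% of probes. They were Clec14a (-0.49, SE 0.15), an endothelial surface lectin, Cldn5 (-0.69, SE 0.24), the tight junction claudin of endothelium, Selp (-0.49, SE 0.19), which captures leukocytes, Tal1 (-0.47) and She (-0.55). At day 21, 17 of the 22 were lower in LP, with a median of -0.07. Without NP 4f at day 28, 20 of the 22 were lower in LP at that day, with a median of -0.12. The 5 genes with an unadjusted p under 0.05 became 3 without NP 4f, 3 without LP 7f and 8 without NP 5f. The mean log2 level of the 22 genes was -0.61 to -0.23 in NP and -0.96 to -0.64 in LP at day 28, without overlap.

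Between the days the 22 genes gave no call. Lower values at day 28 were found for 20 of the 22, but the median was -0.12, and 2 had an unadjusted p under 0.05, against 19.2% of probes. The lowest p belonged to Egfl7 (-0.38, adjusted p = 0.203 by limma), a protein secreted by endothelium, Cldn5 (-0.40) and Emcn (-0.17), the sialomucin endomucin. With 1 array left out the median lay between -0.21 and -0.06, and the count at an unadjusted p under 0.05 was 0 without LP 7c or NP 6a at day 21 or NP 6f at day 28, and 5 without NP 4f.

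At day 28 the epithelial markers were higher in LP for 10 of 10 genes, with a median of 0.75, or 0.28 without NP 4f. Their mean level was -0.59 to 0.75 in the NP rats and 0.88 to 1.16 in the LP rats. At day 21 the 10 were also higher in LP, with a median of 0.92, or 0.47 without LP 6a, and mean levels of -0.23 to 0.96 in NP and 0.28 to 1.94 in LP. None of them passed the adjusted threshold on either day. At day 28 Epcam (0.82), Krt8 (0.88) and Krt17 (0.83) had the lowest p.

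The mean of the 7 fibroblast markers was 4.02 to 4.46 in NP and 4.38 to 4.68 in LP at day 28, and 4 of the 7 were higher in LP. Dpt, the matrix protein dermatopontin, was 1.05 higher in LP (SE 0.39, adjusted p = 0.581 by limma), without overlap of the diets, as for 16.8% of probes, and with an unadjusted p under 0.05. Lum, the matrix proteoglycan lumican, was 0.95 higher (SE 0.43, adjusted p = 0.581 by limma), and Pdgfra differed by -0.16. Both values lie above that of Angpt1 (0.80). The adipocyte markers overlapped, at 2.53 to 2.79 and 2.47 to 2.87, with Cfd at -0.51, Lep at 0.83 and Cidec at 0.20. Of the 10 blood cell markers 9 were lower in LP, with a median of -0.36 (-0.49 to -0.15 with 1 array left out). In 5 of them every LP rat lay below every NP rat, against 16.8% of probes whose diets did not overlap. None had an unadjusted p under 0.05, and Hba-a2 (-0.42), Hbb-b1 (-0.25) and Alas2 (-0.29) had the lowest. Of the skeletal muscle markers Ckm (-1.15, SE 2.39), Myh1 (-1.03, SE 2.53) and Myh4 (-1.02, SE 2.57) had the lowest p, each with an SE larger than the difference. The median of the 8 muscle markers lay between -3.29 and 0.77 with 1 array left out. No blood cell or skeletal muscle marker passed the adjusted threshold. The part of these cell types in the differences of Angpt1 and Tie1 was not tested.

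Of the VEGF and angiopoietin pathway, 18 other genes were tested of 22 listed. At day 28, 7 were higher and 11 lower in LP, with a median of -0.09, and none passed the adjusted threshold. Flt4, the receptor for the lymphatic factors of the VEGF family, was -0.40 (SE 0.13, adjusted p = 0.581 by limma). It was followed by Calcrl (-0.55, SE 0.26), the receptor for adrenomedullin, and by Angpt4 (1.32, SE 0.73), a further Tek ligand, both with an adjusted p of 0.581 by limma. Between days 6 were higher and 12 lower and none passed. Those with the lowest p were Ramp2 (-0.31), which pairs with the adrenomedullin receptor, Nos3 (-0.50), the nitric oxide synthase of endothelium, and Acvrl1 (-0.29), the receptor that works with Eng.

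Among 11 tip cell genes, which mark sprouting vessels, 6 were higher and 5 lower in LP at day 28, with a median of 0.02. Esm1 (-0.83, adjusted p = 0.581 by limma) and Dll4 (-0.64, adjusted p = 0.581 by limma) had the lowest p, and in both every LP rat lay below every NP rat, against 16.8% of probes whose diets did not overlap. Nid2, a basement membrane protein with the next lowest p, had the other sign (0.52, SE 0.34, adjusted p = 0.59 by limma). Between days 9 of the 11 were lower, with Col4a2, a chain of the vessel basement membrane, at -0.55 (adjusted p = 0.0943 by limma), Kcne3 at -0.46 and Cxcr4 at 0.42.

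**Figure D5:**
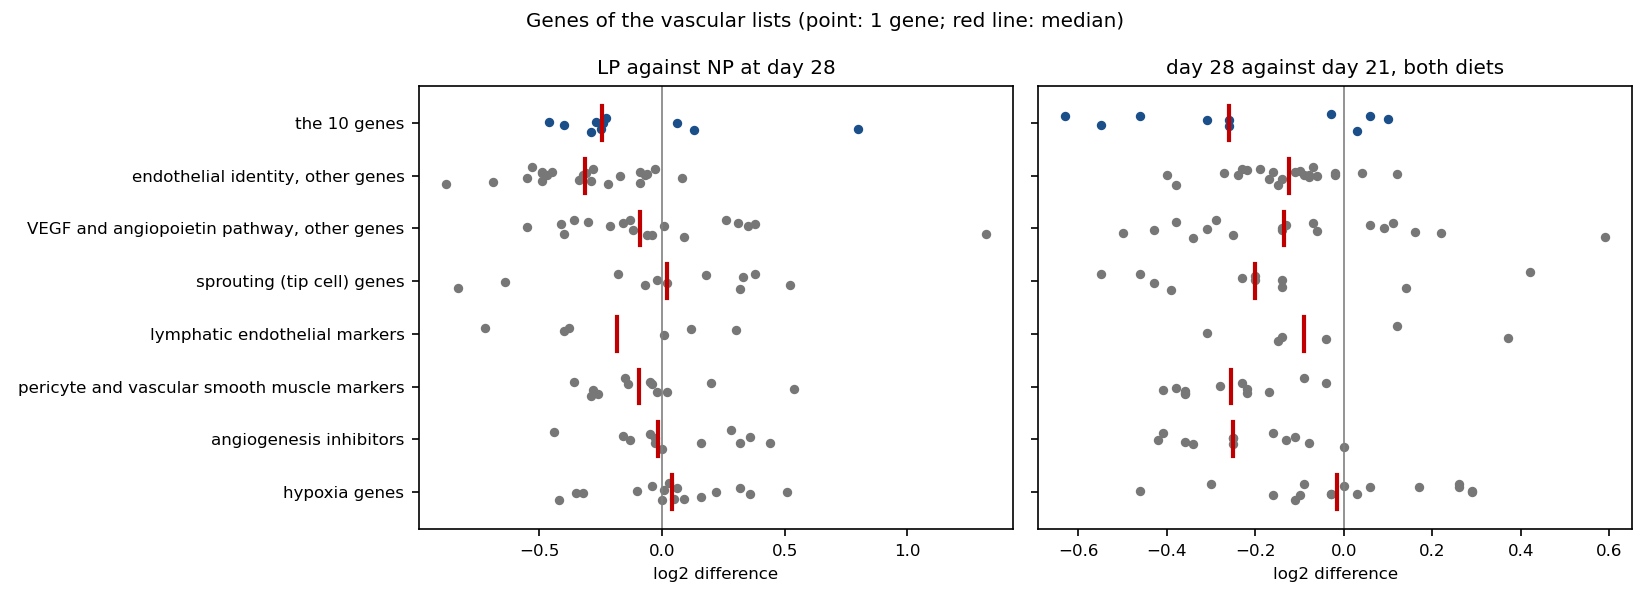
Log2 difference of each gene (horizontal axis, 1 point per gene) of the 10 genes and 7 other vascular lists, with the median of each list as a red line, for LP against NP at day 28 and for day 28 against day 21 over both diets. In the first panel the 22 other endothelial genes have a median of -0.32 and 21 of them lie below 0, and in the second the 12 pericyte and smooth muscle markers all lie below 0.

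Of 12 pericyte and vascular smooth muscle markers, all 12 were lower at day 28 than at day 21, with a median of -0.26, and 11 of 12 without LP 6a or NP 5a at day 21 or without NP 4f at day 28. None passed the adjusted threshold and 4 had an unadjusted p under 0.05, against 19.2% of probes (9.35% lower), and this count was 2 without LP 7c or NP 6a at day 21 or LP 7f at day 28. The lowest p belonged to Kcnj8 (-0.38) and Rgs5 (-0.36), both typical of pericytes, and Tagln (-0.36) of smooth muscle. Their mean level was 0.37 to 0.61 in NP and 0.58 to 0.93 in LP at day 21, and 0.37 to 0.44 and 0.16 to 0.42 at day 28. Between the diets at day 28, Pdgfrb (-0.36), Notch3 (-0.28) and Cspg4 (-0.26) had the lowest p.

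Of 12 angiogenesis inhibitors, 11 were lower at day 28 than at day 21, with a median of -0.25, and Sema3f (-0.36, adjusted p = 0.11 by limma), Spry1 (-0.25) and Dab2ip (-0.25) had the lowest p. Between the diets at day 28 the lowest p were those of Adamts1 (0.32), Thbs1 (-0.44) and Col18a1 (0.36). The 16 hypoxia genes were split evenly between the days, with 8 higher and 8 lower and a median of -0.01. Ndrg1 (-0.46, adjusted p = 0.0959 by limma), Ankrd37 (0.26) and Hif1a (0.29), the hypoxia factor itself, had the lowest p between days, and Egln3 (-0.42), Ero1l (0.22) and Pdk1 (0.51) between the diets at day 28. None of these passed the adjusted threshold. Of 6 lymphatic markers tested 4 were lower at day 28, with a median of -0.09 and the lowest p for Mmrn1 (-0.31), Flt4 (-0.14) and Pdpn (0.12), and between the diets at that day for Flt4, Mmrn1 (-0.38) and Ccl21 (-0.72). Prox1, the defining factor of lymphatic endothelium, was well above background on 0 of 12 arrays.

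Red cell genes moved with the day as well. Slc4a1, the anion exchanger of red cells, was -2.21 (SE 0.24, adjusted p = 0.00517 by limma), Alas2, the erythroid enzyme of heme synthesis, -1.83 (SE 0.20, adjusted p = 0.00517 by limma) and the globin gene Hbb-b1 -0.95 (SE 0.15, adjusted p = 0.0195 by limma). Of the 10 blood cell markers 5 were lower and 5 higher at day 28. Their mean level was 2.40 to 2.74 in NP and -0.02 to 2.35 in LP at day 21, and 1.90 to 2.33 and 1.61 to 1.72 at day 28. The mean of the 10 epithelial markers overlapped between the days, with a median difference of 0.02 and the lowest p for Krt17 (-0.27), Cldn3 (0.17) and Krt5 (-0.23). Of the fibroblast markers Col1a2 (0.24), Lum (-0.40) and Dcn (-0.10) had the lowest p between days. The skeletal muscle markers were lower at day 28 for 8 of 8 genes (median -1.41, or -2.53 to -0.46 with 1 array left out), with mean levels from -5.06 to 3.03 over the 12 arrays and none past the adjusted threshold, the lowest p being those of Acta1 (-1.57), Myh4 (-2.07) and Myh2 (-2.07). Of the 7 adipocyte markers 5 were higher at day 28, and Retn, the hormone resistin, passed the threshold (0.69, adjusted p = 0.0384 by limma), followed by Cfd (0.61, adjusted p = 0.128 by limma) and Lep (-0.85, adjusted p = 0.209 by limma). The part of these cells in the differences of Tie1 and Eng was not tested.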

How the data were processed

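RNA of 12 mammary glands was hybridised to one-colour rat arrays, which the authors scanned and read with Agilent Feature Extraction 10.7.3.1. In the intensity that they deposited for each spot, the background had been subtracted and trends within the array removed, but arrays were not scaled to each other. A deposited table gives the ratio of each intensity to a constant of its array and was counted as an alternative. Set against the 75th percentile it gives the main values again by construction, so it is no separate check. Control spots and spots marked as outliers (259 to 766 per array) were left out here, log2 intensities were set against the 75th percentile of each array, and the spots of a probe were averaged. Probes needed to be well above background on 3 arrays or more. Two-sided tests over all 4 groups used lmFit and eBayes of limma 3.58.1 (R 4.3.3, prior degrees of freedom 1.95), and were checked on simulated data with 200 changed probes. Intervals are 95% intervals, and 3 arrays per group limit their precision. For the 10 genes every probe with the symbol was taken, and the brightest probe stands for a gene. One probe of Vegfa is not reported here. Of 12 other lists, the 3 genes with the lowest p between the diets at day 28 and between the days over both diets are named, and Tal1, She and Prox1 were named after their values were seen. The genes and lists were chosen with earlier results of these data known. Alternatives were other normalizations, filters, moderation and blocks and leaving out each array. Keeping outlier spots, using the brighter or the dimmer spot of a probe, and leaving out arrays for the list counts were chosen after seeing the data. Correlations are descriptions with no test. Figures were drawn with matplotlib 3.10.9.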

Additional observations from a re-analysis of the deposited data

How the results depend on the processing

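Of 1466 values recomputed under an alternative for the 10 genes, 1365 kept their direction and their side of the threshold, and 70 changed sign, none of which passed the threshold in either setting. The differences between diets at day 28 of Angpt1 and Tie1 kept their sign under every alternative computed. These alternatives are refits of the same rats, and in none of them did either difference pass the adjusted threshold. The part of the group size of 3 arrays in this was not tested. The calls of Tie1 and Eng between days lay close to the threshold, and 30 of their recomputed values, single arrays left out included, missed it. Tie1 passed it in 9 of 12 alternatives with all arrays kept and in 3 of 12 with 1 array left out. Eng passed it in 6 of 12 and in 0 of 12, and Tek passed it once. The deposited table, counted among the 12 that kept all arrays and among the 1466 values, gives the main values again by construction. Tie1 lay between -0.64 and -0.59 and Eng between -0.64 and -0.41 under the alternatives that keep all arrays. With the brighter spot Eng was -0.46 (adjusted p = 0.125 by limma) and with the dimmer spot -0.64 (adjusted p = 0.0576 by limma). The cause of a change was not tested.

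The labels number the rats, but the numbers were not shown to pair them: deviations from the group means of rats with the same number correlated between -0.06 and 0.38. With the number as a replicate block, the adjusted p between days was 0.0761 for Tie1 and 0.109 for Eng, and with 6 blocks of diet and number it was 0.11 and 0.0537. The probes called between days over both diets fell from 421 to 209 and to 21 under these blocks, and those within NP from 58 to 0 under both.

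Other alternatives moved the counts of called probes as well. Over both diets there were 271 with normexp background correction, 217 without a filter and 99 to 398 with 1 array left out. Within NP there were 0 without a filter and 0 when only the NP arrays were fitted, 88 with probes well above background on all 12 arrays, 91 with trend and robust moderation, 36 with the slide row as a covariate, and 0 to 31 with 1 array left out. Within LP the count of 0 (2346 at an unadjusted p under 0.05) became 6 with normexp, 1 with only the LP arrays, and 0 to 4 with 1 array left out.

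The largest value after a change of sign was -0.28, that of Eng for LP against NP at day 21 with outlier spots kept. It lay outside the range of the main differences of the 10 genes in that comparison (-0.19 to 0.24). For LP against NP at day 21, Kdr became -0.04 with quantile normalization, -0.02 with normexp, -0.04 with the replicate number block and -0.01 with the brighter spot. Eng became -0.01 with normexp and -0.28 with outlier spots kept, and Angpt1 0.00 with normexp, 0.00 with the slide row and -0.01 with the dimmer spot. At day 28 Eng became -0.12 with the brighter spot, and so did its change of the diet difference between days (-0.12). Between days within NP, Vegfa became -0.02 with quantile normalization, -0.06 with the dimmer spot and -0.18 as the mean of its probes. Pecam1 became -0.01 with normexp, Flt1 0.05 with normexp and 0.05 with the brighter spot, and Angpt2 0.03 and 0.02 with these. Within LP, normexp gave 0.12 for Kdr and 0.03 for Vegfa. Over both diets Pecam1 became -0.06 with normexp and -0.04 with the dimmer spot, and Vegfa 0.05 with normexp and 0.01 with the brighter spot.

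With 1 array left out, values on both sides of 0 were found for the following. For LP against NP at day 21 the ranges were -0.13 to 0.11 for Cdh5, -0.06 to 0.04 for Kdr, -0.02 to 0.13 for Flt1, -0.09 to 0.13 for Eng and -0.06 to 0.11 for Angpt1. At day 28 they were -0.05 to 0.14 for Eng and -0.41 to 0.02 for Vegfa. Between days within NP they were -0.08 to 0.38 for Pecam1, -0.26 to 0.16 for Vegfa and -0.06 to 0.06 for Angpt2. Within LP they were -0.17 to 0.06 for Pecam1, -0.14 to 0.12 for Kdr and -0.16 to 0.01 for Vegfa. Over both diets they were -0.08 to 0.15 for Pecam1, 0.00 to 0.16 for Kdr, -0.16 to 0.05 for Vegfa and -0.07 to 0.20 for Angpt1. For the change of the diet difference they were -0.45 to 0.01 for Pecam1, -0.21 to 0.09 for Tek, -0.07 to 0.16 for Eng and -0.23 to 0.19 for Vegfa.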
